A study of Mus musculus with 8 samples.

Results

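The circadian clock genes described here are 10 transcripts of the mouse molecular clock and its output, chosen by symbol: the activators *Arntl* (also called *Bmal1*) and *Clock*, the repressors *Per1*, *Per2*, *Per3*, *Cry1* and *Cry2*, the nuclear receptors *Nr1d1* and *Nr1d2*, and the output gene *Dbp*. They are 10 of the 53379 Ensembl genes in the deposited count table, and all 10 passed the filter on low counts that left 16914 genes for testing. The RNA came from the cingulate cortex (cingulate gyrus) of 4 untreated WT and 4 untreated *Mvp*-/- (Mvp KO) male mice, whose samples are called WT 1 to 4 and KO 1 to 4 after the replicate numbers in the labels. The KO allele is a gene trap on a C57BL/6N background, in which a β-galactosidase and neomycin cassette with a splice acceptor and a polyadenylation signal sits in the first intron of *Mvp*, the gene of the major vault protein. It comes from a single gene trap clone and is constitutive, so that it is not limited to the brain. Neither the labels nor the methods give the time of day at which the tissue was taken or the age of the mice used for sequencing, and mice of the colony were kept on a light/dark cycle. The study's methods call its replicates biological, while the labels tie no sample to an animal, so the p-values measure the spread between these samples.

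The clock runs as a feedback loop within each cell. ARNTL and CLOCK bind E-box sequences and switch on the *Per* and *Cry* genes, whose proteins return to the nucleus and repress ARNTL and CLOCK, while the NR1D receptors repress *Arntl* through RORE sequences and DBP acts on D-box sequences. In most mouse tissues, the cerebral cortex included, *Arntl* RNA peaks near the end of the night, *Nr1d1*, *Nr1d2* and *Dbp* during the day and *Per2* around dusk, so that *Arntl* and *Dbp* stand at opposite ends of the cycle. *Per1* and *Per2* are also induced by neuronal activity and by glucocorticoids, outside the daily rhythm. The comparisons below ask whether the clock phase at which the tissue was sampled differed over the 8 samples or between the genotypes.

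Across the samples, the total was between 28456504 and 42854368 counts, and the members had between 596 and 8364 counts in a sample, which gives a counting error (Poisson SD) of 1.09% to 4.096% of a value. *Mvp* was between 5.49 and 7.89 CPM (counts scaled to the size of the library) in WT and between 1.44 and 2.13 CPM in KO, with a log2 fold change of -2.06 (SE 0.186); each KO sample was below each WT sample (adjusted p = 0.0162, edgeR's quasi-likelihood test, Benjamini-Hochberg). It passed the threshold without WT 4 or KO 3 but missed it when any other sample was left out, with an adjusted p of at most 0.147 by edgeR. WT 4 stood apart from the rest: on the first principal component of all tested genes, which held 46% of the variance, it was at 71.5 and the other 7 samples were between -20.4 and -2.78. Markers of neurons, oligodendrocytes, astrocytes, microglia and endothelial cells were all above 0 in every sample. In such bulk tissue, fewer cells of a type and less RNA per cell cannot be told apart.

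Sequences before the start sites show which of the members carry the clock's own motifs in these windows. Of the 10 members, 9 had at least 1 promoter in the RefSeq table for GRCm38.p6, in windows of 250 bases before to 50 bases after a start site, and *Per2* had none. The letters searched, on either strand, were CACGTG for the E-box, TTATGTAA and TTACGTAA for the D-box, AGTAGGTCA, AATAGGTCA, AGTGGGTCA and AATGGGTCA for the RORE, and TGACGT for the core of the cAMP response element (CRE). No motif on this list contains another, and the E-box reads the same on either strand. Of all 32851 windows of this length, 7.15% held the E-box letters, 1.06% a D-box, 0.776% a RORE and 7.51% the CRE core.

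The members with a match are printed here 5′ to 3′ on the strand of the gene, with the motif in capitals. A match of letters does not show that a protein binds there. The E-box of *Per1* starts at -166 from its upstream start site (chr11:69098763-69098808, plus strand). The CRE core of *Per1* starts at -132 from a downstream start site (chr11:69100000-69100045, plus strand). *Per3* has a pair of D-boxes that start at -205 and -158 from its start site (chr4:151044796-151044890, minus strand). In *Cry1* the E-box starts at -60 from the start site (chr10:85185089-85185134, minus strand). *Arntl* has a RORE at position 29 of the transcript from its downstream start site (chr7:113207529-113207557, plus strand).
Per1 upstream promoter: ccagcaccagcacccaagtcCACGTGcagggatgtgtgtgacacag
Per1 downstream promoter: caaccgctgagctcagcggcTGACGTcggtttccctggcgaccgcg
Per3: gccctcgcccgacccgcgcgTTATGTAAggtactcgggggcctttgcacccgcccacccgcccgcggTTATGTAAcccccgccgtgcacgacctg
Cry1: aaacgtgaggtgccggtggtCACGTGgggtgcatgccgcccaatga
Arntl: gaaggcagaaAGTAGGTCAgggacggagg

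*Clock*, *Cry2*, *Nr1d1*, *Nr1d2* and *Dbp* held none of these letters in their windows, which says only that they are not in this stretch. Among other clock genes, *Ciart*, which encodes a repressor of ARNTL and CLOCK, held the E-box letters at 3 places (chr3:95882247-95882364, minus strand), and *Nfil3*, which encodes a repressor at D-boxes, held a RORE on the opposite strand just before its start site (chr13:52981040-52981071, minus strand). They are shown because *Nfil3* moved most in WT 4 and *Ciart* is dense in E-boxes.
Ciart: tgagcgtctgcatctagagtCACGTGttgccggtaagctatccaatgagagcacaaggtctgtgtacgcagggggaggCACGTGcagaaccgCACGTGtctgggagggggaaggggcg
Nfil3: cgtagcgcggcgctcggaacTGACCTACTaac

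All 10 clock genes were expressed in the cingulate gyrus of both genotypes. On a scale of CPM per kilobase of exon, which lets levels of different genes be set side by side, *Nr1d1* (32.2 ± 2.38, SD, n = 8), *Nr1d2* (29.95 ± 5.05) and *Cry2* (29.6 ± 1.31) were highest and overlapped in their ranges. *Dbp* (18.7 ± 4.48) and *Per1* (18.03 ± 2.36) came next and did not differ beyond their spread. *Per2* (11.2 ± 3.34) and *Clock* (8.77 ± 0.364) followed and overlapped in KO 2, where *Per2* was at 6.36. The lowest levels were those of *Per3* (6.88 ± 0.965), *Cry1* (6.70 ± 1.45) and *Arntl* (5.98 ± 1.37), which also overlapped. These steps were not clean: in WT 4, *Nr1d2* (17.6) fell into the ranges of *Dbp* and *Per1*, *Dbp* (9.05) into that of *Per2*, *Per2* (18.2) reached into those of *Dbp* and *Per1*, and *Per3* (8.95) and *Cry1* (10.2) reached the level of *Clock* or above. *Per2* in KO 2 also lay among the values of the lowest 3. Exon lengths were the union of all annotated exons, so a gene with long unused exons reads low. For *Dbp*, 18.01% of exon bases lie opposite exons of *Sphk2*, and for *Nr1d1*, 8.55% lie opposite exons of *Thra*. The strand setting used in counting is not given in the sources used here.

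In the values of each sample, the genotypes overlapped for every clock gene. Between KO and WT, 0 of the 10 members passed an adjusted p of 0.05 in edgeR's quasi-likelihood test, adjusted by Benjamini-Hochberg over all 16914 genes, where 0.00591% of all genes did. At an unadjusted p of 0.05 the count was also 0 of 10, against 1.56% of all genes, and it was 0 by DESeq2 and by limma voom too. The groups did not overlap for 0 of the 10 members and for 1.52% of all genes. The adjusted p was between 0.969 and 0.973 for each of the 10. Of the log2 fold changes, 4 were above 0 and 6 below, with a median of -0.04, beside 8457 above 0 and 8457 below among all genes tested.

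**Figure D1:**
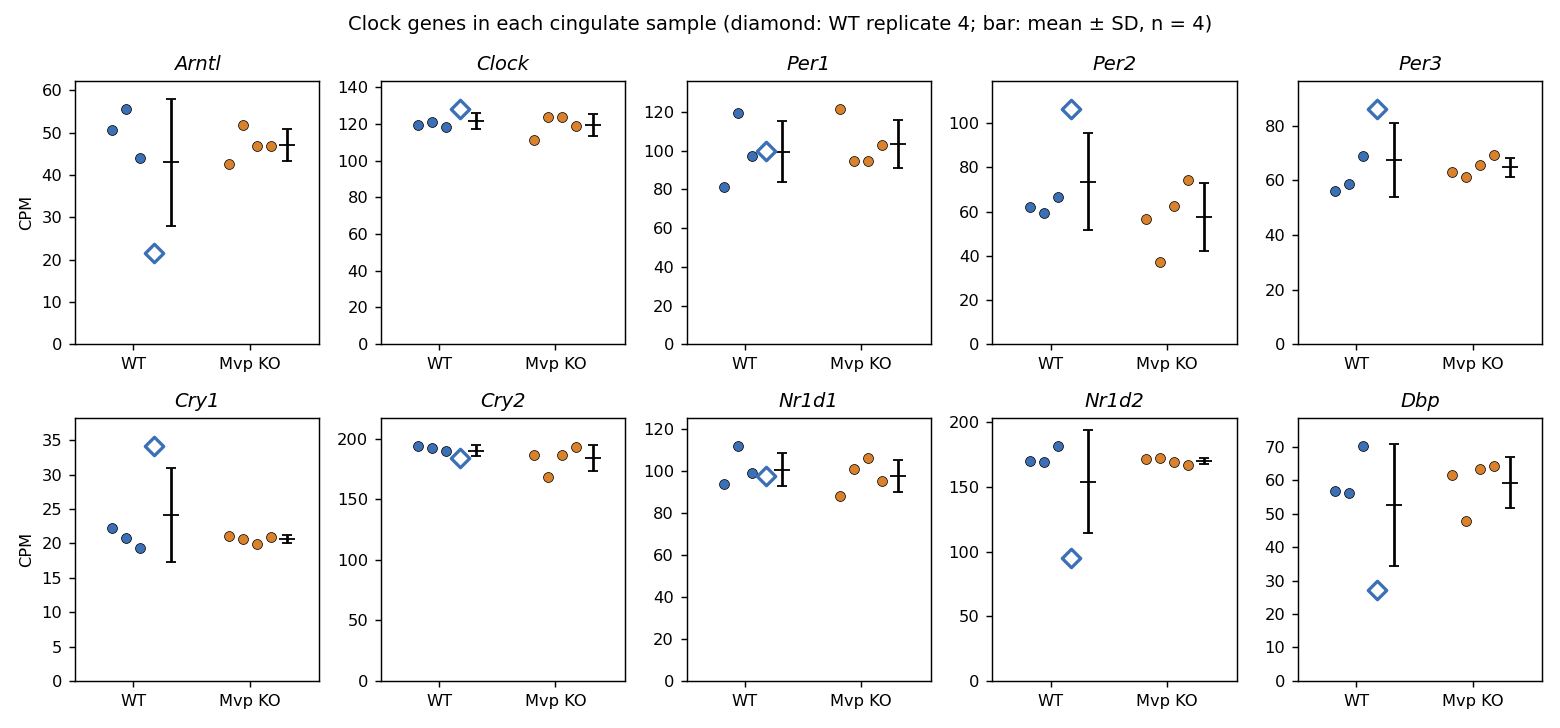
Each panel plots 1 clock gene in CPM (vertical axis, from 0) for the 4 WT (blue) and 4 Mvp KO (orange) samples in replicate order, with WT 4 as an open diamond and the black bar giving mean ± SD, n = 4. The diamond lies below all other points for *Arntl*, *Nr1d2* and *Dbp* and above them for *Clock*, *Per2*, *Per3* and *Cry1*, while the other 3 WT samples overlap the KO samples in every panel.

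*Arntl* (chr7:113207465-113314126, plus strand) encodes the partner of CLOCK without which the loop stops. It was at 50.7, 55.5, 44.0 and 21.7 CPM in WT 1 to 4 and at 42.7, 51.8, 46.8 and 46.9 CPM in KO 1 to 4. WT 4 was the lowest of all samples, at 0.461 times the median of the other 7, and the other 3 WT samples overlapped the KO range. The log2 fold change of KO against WT was 0.13 (SE 0.241, 95% interval -0.41 to 0.67). Without WT 4 it was -0.09 (SE 0.0916), with an interval of -0.29 to 0.12.

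*Clock* (chr5:76209868-76304792, minus strand), the other activator, is among the least rhythmic transcripts of the loop. It was at 119, 121, 118 and 128 CPM in WT 1 to 4 and at 111, 124, 123 and 119 CPM in KO 1 to 4. The highest sample was 1.15 times the lowest, and its SD of 0.0604 in log2 CPM, the smallest of the members, was undercut by 3.25% of all genes tested. The log2 fold change of -0.03 (SE 0.0632) had an interval of -0.17 to 0.11.

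*Per1* (chr11:69095217-69109960, plus strand) encodes a repressor that also responds within minutes to neuronal activity. Its level was 81.5, 120, 97.4 and 99.8 CPM in WT 1 to 4 and 121, 94.7, 94.7 and 103 CPM in KO 1 to 4. KO 1 and WT 2 were highest, WT 1 was lowest, and WT 4 lay in the middle. KO and WT differed by 0.06 on the log2 scale (SE 0.124, 95% interval -0.22 to 0.33).

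*Per2* (chr1:91415982-91459324, minus strand), the repressor most often used as a marker of clock phase, was the most variable member outside WT 4. It was at 62.1, 59.2, 66.8 and 106 CPM in WT 1 to 4 and at 56.6, 37.2, 62.8 and 74.2 CPM in KO 1 to 4. The highest value was in WT 4, at 1.71 times the median of the other samples, and the lowest in KO 2, so that the genotypes overlapped. *Per2* had the largest difference between genotypes of the 10, a log2 fold change of -0.35 (SE 0.237, 95% interval -0.89 to 0.18), and it did not pass the test (adjusted p = 0.969, edgeR's quasi-likelihood test, Benjamini-Hochberg). An exact two-sided permutation test over the 70 arrangements gave p = 0.371, where the smallest p it allows is 0.0286. Without WT 4 the difference was -0.12 (SE 0.201), with an interval of -0.58 to 0.35, and it was -0.20 without KO 2 and -0.50 without KO 4.

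*Per3* (chr4:151003652-151044665, minus strand) is a rhythmic *Per* gene that the loop can run without. It was at 56.0, 58.7, 69.0 and 86.0 CPM in WT 1 to 4 and at 62.8, 61.3, 65.7 and 69.1 CPM in KO 1 to 4. WT 4 was highest, at 1.37 times the median of the others, and WT 1 was lowest. KO and WT differed by -0.06 on the log2 scale (SE 0.127), and by 0.08 (SE 0.0813) without WT 4.

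*Cry1* (chr10:85131700-85185064, minus strand) encodes the stronger repressor of the cryptochrome pair and peaks late among the repressors. It was at 22.3, 20.8, 19.4 and 34.2 CPM in WT 1 to 4 and at 21.1, 20.6, 19.9 and 20.9 CPM in KO 1 to 4. WT 4 alone was high, at 1.65 times the median of the others, and the remaining 7 samples lay within 1.15-fold of each other. The log2 fold change of -0.23 (SE 0.165) shrank to -0.01 (SE 0.0718) without WT 4.

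*Cry2* (chr2:92403646-92434043, minus strand), the other cryptochrome, was at 194, 193, 190 and 184 CPM in WT 1 to 4 and at 187, 169, 187 and 193 CPM in KO 1 to 4. KO 2 was lowest, and WT 4 lay within the range of the others. Its log2 fold change was -0.05 (SE 0.0650, 95% interval -0.19 to 0.10).

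*Nr1d1* (chr11:98767932-98775333, minus strand), or REV-ERBα, encodes a heme-binding receptor that represses *Arntl*. It was at 93.8, 112, 99.1 and 97.5 CPM in WT 1 to 4 and at 88.2, 101, 106 and 95.3 CPM in KO 1 to 4. WT 2 was highest and KO 1 lowest, 1.27-fold apart, with WT 4 in the middle. The log2 fold change was -0.04 (SE 0.0816, 95% interval -0.23 to 0.14).

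*Nr1d2* (chr14:18204054-18239127, minus strand), or REV-ERBβ, is its close relative. It was at 170, 169, 182 and 95.3 CPM in WT 1 to 4 and at 172, 172, 169 and 167 CPM in KO 1 to 4. WT 4 alone was low, at 0.561 times the median of the others, and the other 7 samples were within 1.09-fold, an SD of 0.0394 in log2 CPM that only 1.68% of all genes undercut. With all 8 samples the log2 fold change was 0.14 (SE 0.174), and without WT 4 it was -0.03 (SE 0.0539).

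*Dbp* (chr7:45705088-45710203, plus strand) encodes a bZIP activator of output genes and is among the transcripts with the deepest daily swing in mouse tissues. It was at 56.8, 56.2, 70.3 and 27.1 CPM in WT 1 to 4 and at 61.6, 48.0, 63.3 and 64.3 CPM in KO 1 to 4. WT 4 was lowest, at 0.440 times the median of the others, followed by KO 2, and WT 3 was highest. For *Dbp* the log2 fold change was 0.17 (SE 0.245, 95% interval -0.38 to 0.72), and -0.04 (SE 0.118) without WT 4.

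**Figure D2:**
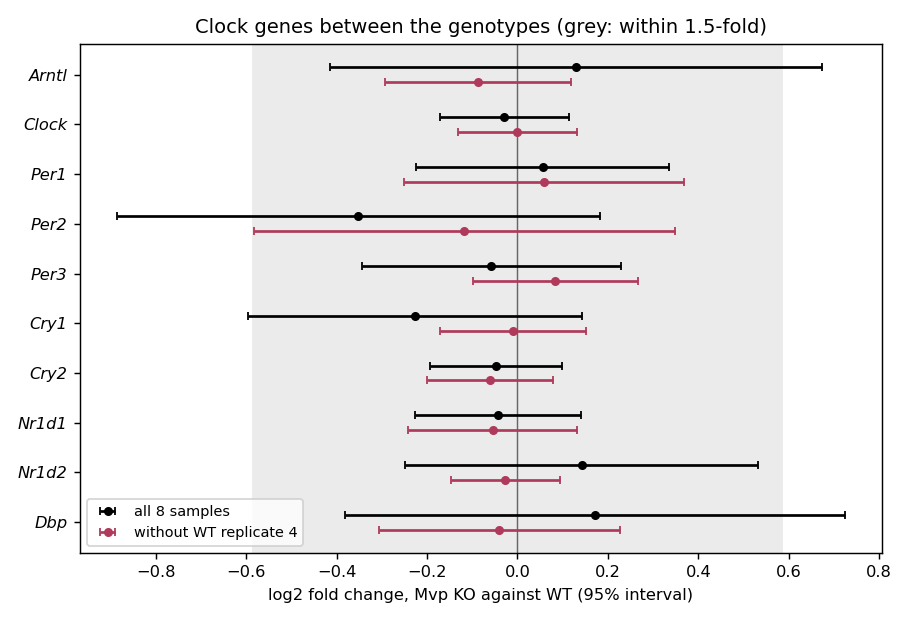
Points give the log2 fold change of Mvp KO against WT for each clock gene with its 95% interval, with all 8 samples in black and without WT 4 in red. The grey band marks changes of less than 1.5-fold. Every interval crosses 0, and the 4 black intervals that leave the band, those of *Arntl*, *Per2*, *Cry1* and *Dbp*, lie inside it in red.

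The intervals set what size of difference these samples still allow. With all 8 samples, 6 of the 10 members had a 95% interval within 1.5-fold either way, beside 64.5% of all genes tested, and those of *Arntl*, *Per2*, *Cry1* and *Dbp* reached beyond it. When WT 4 was left out, all 10 intervals lay within 1.5-fold, beside 71.4% of all genes. That of *Per2* still came to the edge of the 1.5-fold limit on the lower side. In that fit, 0 of the 10 members had an unadjusted p under 0.05, where 1.34% of all genes did, and the smallest p was 0.328, for *Per3* (unadjusted, edgeR's quasi-likelihood test).

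Other genes of the clock gave the same count. Of 23 further genes, which include *Npas2* and *Arntl2* (relatives of *Clock* and *Arntl*), the receptors *Rora* and *Rorb* that activate through ROREs, the repressors *Bhlhe40*, *Bhlhe41*, *Ciart* and *Nfil3*, the *Dbp* relatives *Tef* and *Hlf*, and genes of protein turnover such as *Csnk1d*, *Csnk1e* and *Btrc*, 0 passed either threshold between the genotypes. With log2 fold changes of 12 above 0 and 11 below and a median of 0.01, the smallest unadjusted p was 0.0919, for *Arntl2*, which was at 8.45 to 12.4 CPM in WT and at 12.04 to 14.4 CPM in KO. The groups overlapped in all 23. *Tef* was the highest of all these clock genes and the members per kilobase, at 57.6 ± 6.62 CPM per kilobase (SD, n = 8).

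WT 4 stood apart from the other samples over many genes, and its clock genes lay both above and below theirs. No test was made of it, as it is a single sample that was set apart on these same data. Of the 10 members, 5 lay 1.5-fold or more away from the other 7 samples' median (*Dbp*, *Arntl* and *Nr1d2* below it, *Per2* and *Cry1* above it), beside 24.5% of all genes. Outside the range of the other 7 lay 7 of the members, 4 above and 3 below, beside 61.7% of all genes. *Per1*, *Cry2* and *Nr1d1* lay inside it. *Arntl*, *Dbp* and *Nr1d2* were below the range in WT 4. Whether sampling phase had a part in these values was not tested.

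**Figure D3:**
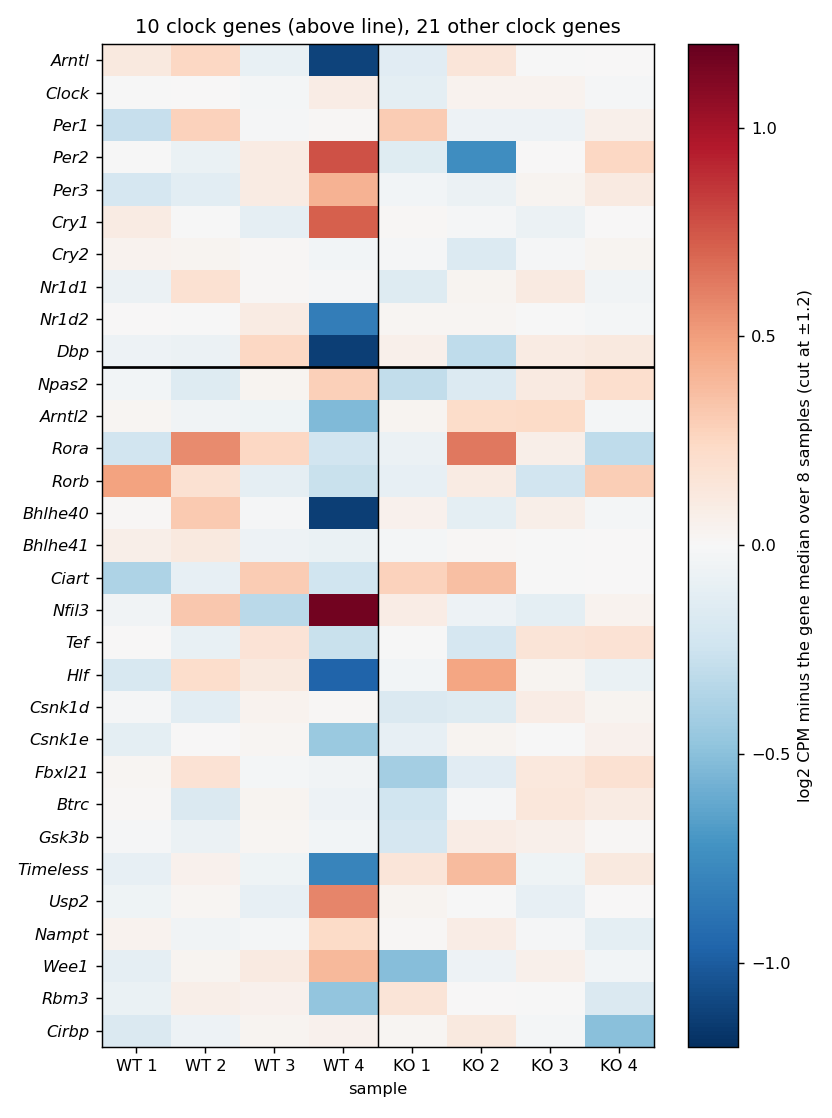
Colour gives log2 CPM of each gene (row) in each sample (column) minus the gene's median over the 8 samples, red for higher and blue for lower, cut at 1.2 either way, with the 10 members above the black line and 21 other clock genes below it. The WT 4 column holds most of the strong colours in both blocks, and *Per2* in KO 2 is the only other strong one among the members.

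Among the other 23 clock genes, 5 (21.7%) lay as far away in WT 4, which is below the 24.5% of all genes, and 15 (65.2%) lay outside the range of the other samples, near the 61.7% of all genes. *Bhlhe40*, a repressor that competes for E-boxes, was at 83.3 CPM in WT 4 and between 168 and 226 CPM in the other 7 samples. *Hlf*, which shares the D-box with *Dbp*, was at 132 CPM against 225 to 356 CPM, and *Timeless* at 2.89 CPM against 4.66 to 6.49 CPM. *Nfil3*, which opposes *Dbp* at D-boxes, was at 24.6 CPM against 8.79 to 13.7 CPM, and *Usp2*, an enzyme that removes ubiquitin, at 105 CPM against 65.1 to 71.4 CPM. These are values of a single sample, given without a test.

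Other genes moved with WT 4. All 8 genes of a list that respond to neuronal activity were highest in it, with a summed level of 2933 CPM beside 611 to 1473 CPM in the other 7 samples, and *Bdnf*, which encodes a neurotrophin, was at 599.5 CPM against 43.4 to 86.9 CPM. All 4 neuronal markers were highest there too, with a sum of 7388 CPM against 4804 to 5682 CPM. *Snap25* (3786 CPM against at most 3661 CPM) and *Rbfox3* (176 CPM against at most 173 CPM) were so by little. *Slc17a7* (2731 CPM against at most 1678 CPM) and *Gad1* (694 CPM against at most 443 CPM) were further above. Of the 4 oligodendrocyte markers, 3 were lowest, and the 4 summed to 1159 CPM against 1342 to 5045 CPM. These counts stand beside 61.7% of all genes outside the range of the other 7 samples in WT 4. The 4 glucocorticoid-responsive genes summed to 365 CPM, inside the range of 210 to 390 CPM of the others, although 2 of them were highest and 1 was lowest there. What part any of these had in the clock gene values of WT 4 was not tested.

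KO 2 was the other sample with a clock gene far from the rest. *Per2* there lay 1.5-fold or more below the other samples' median, the only member to be so in any sample but WT 4, while between 4.37% and 9.52% of all genes were that far away in those 7 samples. *Dbp* was also lowest in KO 2 among the samples other than WT 4. The 4 glucocorticoid-responsive genes had their lowest sum in KO 2, at 210 CPM, where *Sgk1* (71.8 CPM) was lowest of all samples and *Fkbp5* (20.8 CPM), *Zbtb16* (45.6 CPM) and *Tsc22d3* (71.5 CPM) were each second lowest. KO 1 was mixed in the same list, with *Fkbp5* (20.7 CPM) and *Zbtb16* (30.5 CPM) lowest. There, *Tsc22d3* (93.5 CPM) was in the middle and *Sgk1* (126 CPM) second highest. In KO 1, *Per2* (56.6 CPM) was second lowest of all samples, after KO 2, and *Dbp* (61.6 CPM) lay within the range of the others. The part of the glucocorticoid-responsive genes in the *Per2* levels of KO 1 and KO 2 was not tested.

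Once WT 4 was set aside, most members spread less over the samples than the median tested gene. Genes of all levels enter that median, which was not matched to the level of the members. The SD of log2 CPM had a median of 0.227 over the 10 members with all 8 samples, beside 0.199 for all genes tested, and of 0.115 without WT 4, beside 0.146. *Per2* (SD 0.316), *Per1* (0.203) and *Dbp* (0.177) were then the 3 members above the median of all genes. From the lowest to the highest of the 7 samples, *Per2* spanned 1.99-fold, *Per1* 1.49-fold, *Dbp* 1.47-fold, *Arntl* 1.30-fold, *Nr1d1* 1.27-fold and *Per3* 1.23-fold.

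**Figure D4:**
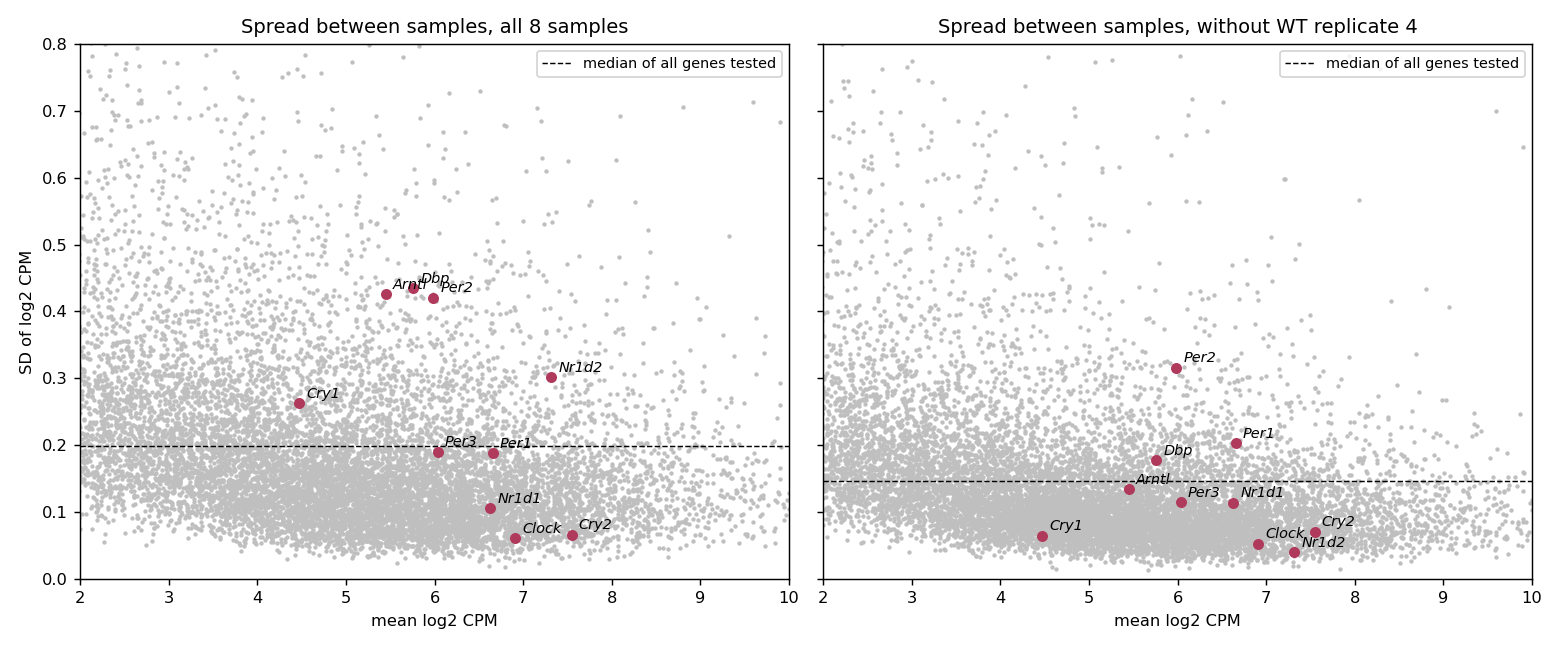
Each grey dot is a tested gene, with its mean log2 CPM (horizontal) and the SD of its log2 CPM over the samples (vertical), for all 8 samples on the left and without WT 4 on the right, and the dashed line is the median SD of all genes. *Dbp*, *Arntl*, *Per2*, *Nr1d2* and *Cry1* lie above the line on the left, and *Per2*, *Per1* and *Dbp* on the right. Genes outside the plotted axes are not shown.

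A phase index set the day-peaking genes against *Arntl* within each sample: the mean log2 CPM of *Dbp*, *Nr1d1*, *Nr1d2* and *Per3* minus the log2 CPM of *Arntl*. It was 0.735, 0.678, 1.13 and 1.65 in WT 1 to 4 and 1.03, 0.707, 0.987 and 0.966 in KO 1 to 4. The genotypes overlapped, with means of 1.05 ± 0.450 in WT and 0.924 ± 0.147 in KO (SD, n = 4), and WT 1 to 3 alone averaged 0.849 ± 0.248. The index spanned 0.975 over the 8 samples and 0.456 without WT 4. No p-value was computed for it, because it is a score over genes chosen with results known.

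The place of WT 4 on this index depended on which genes made it up. With the 4 day-peaking genes against *Arntl*, WT 4 was highest. With *Dbp* minus *Arntl* alone it was at 0.32, between KO 2 (-0.11, the lowest) and WT 3 (0.67, the highest). With the mean of *Arntl*, *Clock* and *Npas2* as the opposite arm, WT 4 was the lowest sample, also at 0.32. The other 7 samples kept WT 3 and KO 1 as the highest pair and KO 2 among the 2 lowest under each of these definitions. Each definition holds *Dbp* in 1 arm and *Arntl* in the other, so part of this order is built in.

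Pairs of clock genes of like or opposite phase were compared over the samples. *Dbp* and *Arntl* had a Pearson r of 0.807 over the 8 samples (exact permutation p = 0.120, adjusted p = 0.217 over 10 pairs) and a Spearman rho of -0.143 (exact permutation p = 0.752). Without WT 4 the sign turned, to r = -0.712 (exact permutation p = 0.0712, adjusted p = 0.227) and rho = -0.714 (exact permutation p = 0.0881, adjusted p = 0.294), and without the 2 samples farthest in *Dbp*, WT 4 and KO 2, r was -0.764. The positive r over the 8 samples therefore rested on WT 4. *Per3* and *Arntl* kept a negative r, -0.901 with all samples (exact permutation p = 0.00680, adjusted p = 0.0680; rho = -0.714, exact permutation p = 0.0576) and -0.662 without WT 4 (exact permutation p = 0.108).

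The pairs of *Dbp* with *Per2* and *Per3*, which did not pass either, changed sign when WT 4 was left out. For *Dbp* and *Per2*, r was -0.443 over 8 samples (exact permutation p = 0.258) and 0.852 without WT 4 (exact permutation p = 0.0210, adjusted p = 0.210), with a rho of 0.857 (exact permutation p = 0.0238, adjusted p = 0.171). Once KO 2 was left out as well, r was 0.536 (exact permutation p = 0.287) and rho 0.771 (exact permutation p = 0.103), with an adjusted p = 0.343 for rho. For *Dbp* and *Per3*, r was -0.624 over 8 samples (exact permutation p = 0.130), 0.681 without WT 4 (exact permutation p = 0.0899, adjusted p = 0.227) and 0.915 without KO 2 as well (exact permutation p = 0.0139, adjusted p = 0.139). *Per1* and *Per2*, which share their response to neuronal activity, had r = 0.00689 over the 8 samples (exact permutation p = 0.985) and rho = 0.0476 (exact permutation p = 0.935). Without WT 4, r was 0.0426 (exact permutation p = 0.915). Without the 2 samples farthest in *Per1*, WT 2 and KO 1, r was 0.323 (exact permutation p = 0.426). In that setting rho was 0.886 (exact permutation p = 0.0333, adjusted p = 0.167). Of the 10 pairs examined, 0 passed an adjusted p of 0.05, with all samples, without WT 4 or without the 2 farthest samples.

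**Figure D5:**
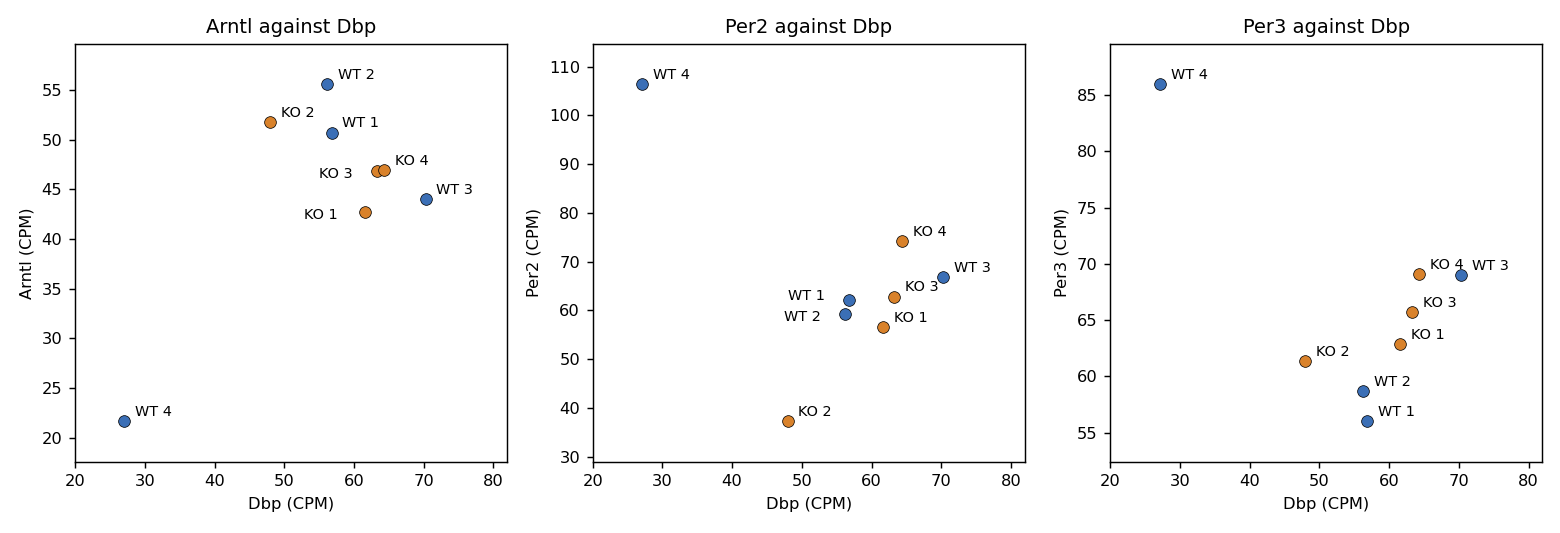
Each point is a sample (WT blue, Mvp KO orange), with *Dbp* in CPM on the horizontal axis and *Arntl*, *Per2* or *Per3* in CPM on the vertical axis of the 3 panels, whose axes do not start at 0. WT 4 lies far from the rest in every panel, and among the other 7 samples *Arntl* tends to fall and *Per2* and *Per3* to rise as *Dbp* rises, with the genotypes mixed and 0 pairs past an adjusted p of 0.05.

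Over the 7 samples other than WT 4, WT 3 was highest in *Dbp* and low in *Arntl*, while WT 2 and KO 2 were low in *Dbp* and highest in *Arntl*. WT and KO samples were found toward both ends of this order. *Nr1d1* did not follow it, being highest in WT 2 (112 CPM) and lowest in KO 1 (88.2 CPM). Without WT 4, its r with *Arntl* was 0.651 (exact permutation p = 0.113, adjusted p = 0.227). With *Dbp* it was -0.187 (exact permutation p = 0.700, adjusted p = 0.778).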

How the data were processed

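The samples were 4 WT and 4 Mvp KO cingulate cortices, grouped by their labels, with 1 deposited table of raw read counts per gene. Per the labels and the study's methods, the authors made stranded polyA libraries from RNA with an integrity number of at least 8, trimmed single-end reads with cutadapt 1.10, removed ribosomal and spike-in reads with Bowtie2 2.2.8, mapped the rest to mm10 with STAR 2.5.3a and counted them with HTSeq 0.6.1p1. The counts are not normalized, and the strand setting of the counting is not given in the sources used here. HTSeq leaves out reads that cover more than 1 gene in its default mode, which can lower overlapping genes. Symbols were matched for 53274 of 53379 identifiers, and gene positions and exon lengths came from GENCODE vM21 on GRCm38.

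Counts were fitted across all genes with edgeR 4.0.16 in R 4.3.3 (filterByExpr with a minimum count of 10, TMM scaling, robust quasi-likelihood test, genotype as the single term, Benjamini-Hochberg adjustment, threshold 0.05). CPM are scaled to the TMM library size, and log2 CPM have a prior count of 2. On simulated counts, the true change lay inside the 95% interval for 95.4% of 16745 genes. Of genes changed 1.5-, 2- and 3-fold, 25.4%, 63.6% and 87.5% were recovered, with 4.17% of calls false. In the simulation, samples of a genotype shared the same mean levels, so none stood apart as WT 4 does. These shares may therefore not hold for the real samples. Exact permutation tests compared values of 1 gene or pair. Alternatives were DESeq2 size factors, the DESeq2 1.42.0 Wald test, limma 3.58.1 voom with quality weights, 2 other filters, the replicate number as a block, other index genes, and leaving out each sample. No pair of samples of a genotype could be the same library (chi-square per gene between 6.54 and 87.4). Python 3.11.15 made the tables and figures.

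The members, the lists of other clock genes, cell type markers and responsive genes, and the setting that leaves out WT 4 were chosen with earlier results of these data known. Genes named are all 10 members, *Mvp*, the listed genes, and the 3 genes whose log2 CPM correlate best with each of *Dbp*, *Arntl* and *Per1*. A few of the listed genes are not reported by name.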

Additional observations from a re-analysis of the deposited data

Results flagged for a closer look

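In 3 of the 22 groups of 4 values examined (10 members and the phase index in each genotype), a single sample lay far from the rest, its gap to the nearest sample exceeding Dixon's 95% critical share of the whole range. Chance gives about 1.1 such groups of 22. The share of all tested genes with such a sample was not computed. WT 4 lay outside the range of the other 7 samples for 61.7% of all genes, so the count is not read as a result about clock genes. *Per2* was at 106 CPM in WT 4, its nearest WT sample at 66.8 CPM. *Nr1d2* was at 95.3 CPM in WT 4, its nearest WT sample at 169 CPM. *Dbp* was at 48.0 CPM in KO 2, its nearest KO sample at 61.6 CPM.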

How the results depend on the processing

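Of the 260 values computed under alternatives for 29 results, 217 had the same sign and the same test outcome or, for counts and values with no test, moved by no more than 1.5 times or less than the spread between samples. The count of members with an adjusted p under 0.05 was 0 in every alternative. Leaving out each sample gave 0 or 1 genes with an adjusted p under 0.05 in place of 1, 0 or 1 other clock genes with an unadjusted p under 0.05 in place of 0 (*Ciart*, without WT 3), and between 5 and 10 members with an interval within 1.5-fold in place of 6; the 10 came without WT 4, where the median SD of the members was 0.115 in place of 0.227. DESeq2's Wald test called 2 genes, *Mvp* and *Bc1*, the latter named here for this call alone. With limma voom, 10 members had an interval within 1.5-fold and 1 other clock gene, *Arntl2*, had an unadjusted p under 0.05, and the log2 fold changes turned to 0.015 for *Clock*, 0.033 for *Per3*, -0.032 for *Nr1d2* and -0.032 for *Dbp*. Over the fits that left out a sample, the log2 fold change was between -0.088 and 0.28 for *Arntl*, -0.051 and 0.0055 for *Clock*, -0.032 and 0.15 for *Per1*, -0.50 and -0.12 for *Per2*, -0.14 and 0.084 for *Per3*, -0.087 and 0.0098 for *Nr1d1*, -0.027 and 0.23 for *Nr1d2* and -0.040 and 0.34 for *Dbp*. *Mvp* stayed between -2.22 and -1.99, and without WT 1, 2 or 3 or KO 1, 2 or 4 its adjusted p missed the threshold, at most 0.147 (edgeR). The index difference of -0.13 between KO and WT stayed within that spread, between -0.25 and 0.07, but had the opposite sign without WT 4 (0.07), with *Dbp* minus *Arntl* (0.03) and with *Clock* and *Npas2* added (0.05).

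Without WT 4, Pearson r turned to -0.712 for *Dbp* and *Arntl*, -0.422 for *Nr1d2* and *Arntl*, 0.681 for *Dbp* and *Per3* and 0.852 for *Dbp* and *Per2*. Without the 2 farthest samples the same 4 pairs were at -0.764, -0.0785, 0.915 and 0.536. The cause of the other changes was not tested.

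Samples of the same replicate number did not pair across the genotypes (correlations of their deviations from the group means 0.0548, 0.287, -0.00671 and 0.0507). With the replicate block, 0 genes passed the adjusted threshold, and 1 member, *Per2*, had an unadjusted p under 0.05 (adjusted p = 0.953, log2 fold change -0.35, edgeR), as did 1 other clock gene, *Wee1*, and the log2 fold change of *Mvp* was -2.07.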

Other observations

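The tested genes whose log2 CPM ran closest to *Dbp* over the 8 samples were *Dnal4* (Pearson r = 0.995), *Sbk3* (0.988) and *Utp23* (0.987), out of 14412 genes with a mean of at least 1 CPM. *Dnal4* was at 29.1 CPM in WT 4 and between 36.7 and 41.1 CPM in the others. Those closest to *Arntl* were *Npy1r* (0.992), *Lrtm2* (0.989) and *Gucy1a1* (0.982). *Npy1r*, which encodes a neuropeptide Y receptor, was at 13.8 CPM in WT 4 and between 35.4 and 46.4 CPM in the others, so that these likenesses share the low value of that sample. For *Per1* they were *Zbtb7b* (0.971), *Ttc7* (0.947) and *Phf21b* (0.938), none of which was extreme in WT 4.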
